A study of Mus musculus with 18 samples.

Results

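The response of Apoe-/-/Treml4-/- double-knockout (DKO) macrophages to a high amount of oxidized low-density lipoprotein (oxLDL) was followed across the transcriptome. The 3 DKO libraries given oxLDL at 60 µg/ml (oxLDL 60) were set against the 3 untreated DKO libraries, so that 6 of the 18 libraries carried the comparison. Genes with at least 0.1 RPKM (reads scaled to gene length and library size) in at least 3 of the 18 libraries were tested, which kept 12838 of 18668 gene symbols. The cells were bone marrow-derived macrophages of C57BL6 mice, grown for 7 days with M-CSF, the growth factor that drives macrophage differentiation. The other groups were DKO cells with oxLDL at 10 µg/ml (oxLDL 10) and Apoe-/- cells, with Treml4 intact, left untreated or given oxLDL 10 or oxLDL 60, with 3 replicates in each of the 6 groups. Every group lacked Apoe, so no library came from wild-type cells, and untreated cells received the vehicle PBS. The series text gives 16 hours with oxLDL, whereas the study's methods give a longer time, and a treatment label that also mentions LPS was not resolved. The replicates are called biological, but no label ties a replicate to an animal, so p-values measure the spread between these libraries.

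oxLDL is taken up by macrophages through scavenger receptors and broken down in lysosomes, which releases cholesterol, oxysterols and oxidized lipids. Oxysterols activate the nuclear receptor LXR, which raises cholesterol export, and hold back SREBP2, which drives cholesterol synthesis. Electrophilic lipids activate NRF2, the master regulator of antioxidant genes, and cells filled with lipid droplets are the foam cells of atherosclerotic lesions.

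Macrophage markers were abundant in all 6 libraries. Adgre1, which encodes F4/80, measured 479, 500 and 594 RPKM without oxLDL (replicates 1 to 3, the order used throughout) and 353, 375 and 407 RPKM with oxLDL 60. Of 10 macrophage markers, 3 fell (Fcgr1, Lyz2 and Cd14), 1 rose (Mertk) and the others were not called. The call of Lyz2 was lost without untreated replicate 3 (-0.59, adjusted p = 0.0576) or treated replicate 1 (-0.62), with no filter (adjusted p = 0.108) and after quantile normalization (-0.39, adjusted p = 0.0552), and that of Mertk without untreated replicate 1 (0.62, adjusted p = 0.0632) or treated replicate 3 (0.63). Markers of other cell types were low: neutrophil markers summed to between 38.1 and 85.1 RPKM in untreated and between 33.9 and 61.5 RPKM in treated libraries, with Ly6g listed at 0 throughout, and none of the 9 tested was called (limma). The summed markers of each of the other types, dendritic, T, B, NK, mast, erythroid, megakaryocyte, stromal, endothelial, adipocyte and osteoclast, reached at most 8.46 RPKM in any of the 6 libraries, with 2 of their markers called higher and 3 lower. Their part in the results was not tested. In bulk RNA, fewer cells of a type and less RNA per cell cannot be told apart.

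Depth, estimated from the steps between low values, was 39750000 to 49880000 reads in the 6 libraries, at which 3 reads over 1 kb of transcript correspond to 0.06015 to 0.07548 RPKM (counting error only). Treml4 was listed at 0 in 5 of them and at 0.0116 RPKM in untreated replicate 2. Apoe left residual transcripts of 0.349, 0.397 and 0.774 RPKM in untreated cells and of 0.761, 0.775 and 1.25 RPKM with oxLDL 60 (0.80, adjusted p = 0.161, and 2.9e-05 with the replicate number as a block). Replicate 3 carried Xist in both groups (14.5 and 14.3 RPKM), with Ddx3y at 0, while replicates 1 and 2 carried Ddx3y between 13.8 and 17.7 RPKM. Counts named below were therefore also taken without the Xist-positive libraries.

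Of the 12838 genes, oxLDL 60 raised 625 (4.87%) and lowered 939 (7.31%), or 12.2% in either direction, with a call set at a limma adjusted p under 0.05 (Benjamini-Hochberg) and a change of at least 1.4-fold. Called genes were higher in 40.0% of cases with RPKM as deposited, in 49.0% after median ratio rescaling and in 51.5% after quantile normalization, so the balance of directions rests on the scaling. The decreases were larger: 370 genes fell and 180 rose by at least 2-fold, 80 fell and 19 rose by at least 4-fold, and 22 fell and 3 rose by at least 8-fold. The 3 that rose most were Gdf15, a stress cytokine, Gsta3, a glutathione transferase, and Cdcp1, a membrane glycoprotein. The median change of all genes tested was -0.06 on the log2 scale. Exact two-sided permutation of 3 against 3 libraries cannot go below p = 0.10, so calls rest on limma, which borrows the spread across genes and groups.

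**Figure D1:**
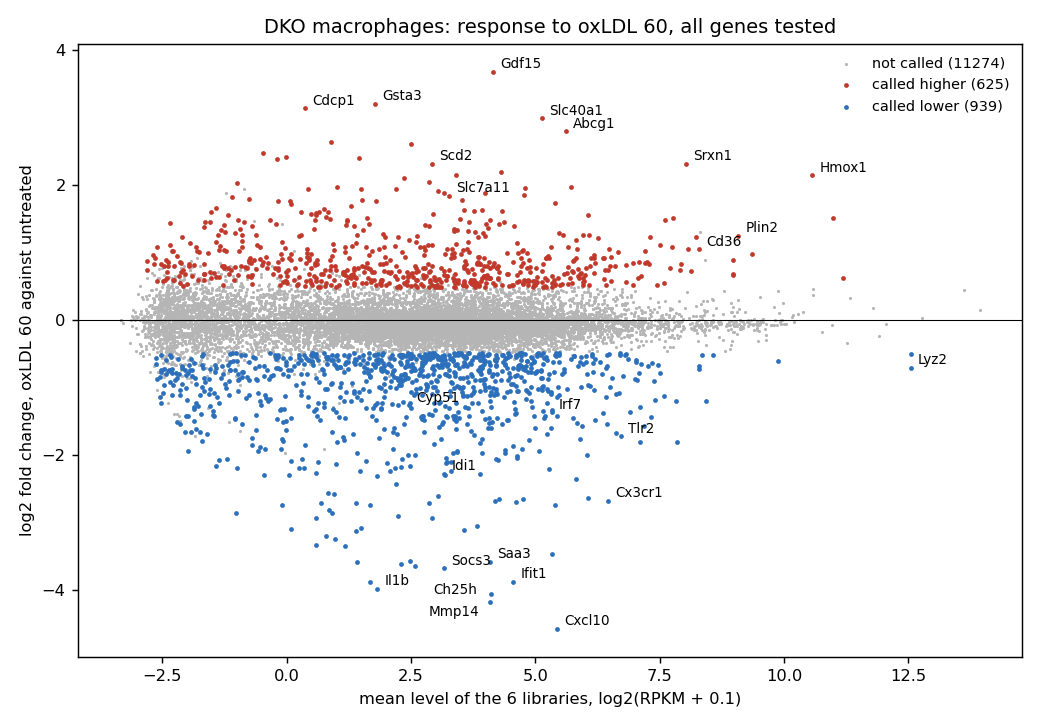
Each point is 1 of the 12838 genes tested, with the mean level of the 6 DKO libraries on the x axis, as log2(RPKM + 0.1), and the log2 fold change of oxLDL 60 against untreated cells on the y axis. The 625 genes called higher are red and the 939 called lower are blue, and the lower ones reach further from 0, down to -4.58 for Cxcl10 against 3.67 for Gdf15.

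Genes were grouped into 47 lists. Counts of called members in the lists below stand against the 4.87% of all genes that rose and the 7.31% that fell. The largest decreases by median were those of the interferon-inducible GTPases and interferon-stimulated genes, and the largest increases those of NRF2 targets, the serpinb family and the integrated stress response. Without the Xist-positive libraries, 15 of the GTPases, 45 of the interferon-stimulated genes, 24 of the NRF2 list and 17 of the stress list were called.

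**Figure D2:**
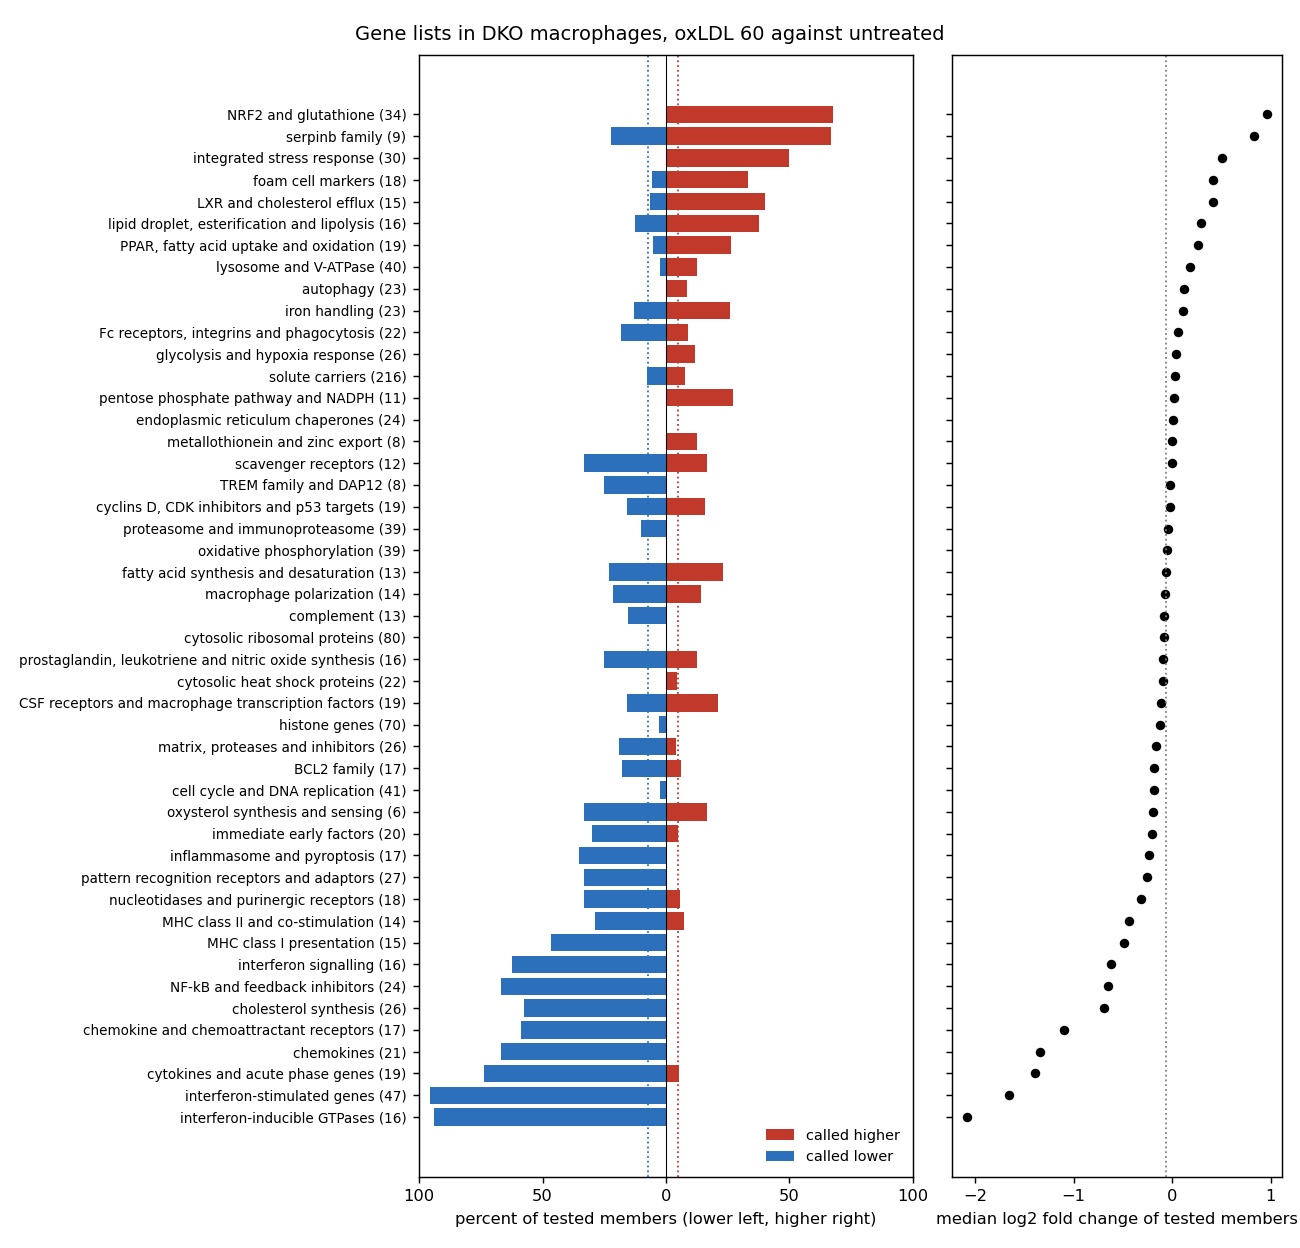
Left, the percent of tested members of each list called lower (blue, to the left) or higher (red, to the right) in DKO cells with oxLDL 60, with the number tested in parentheses and dotted lines at the 7.31% and 4.87% of all genes called in each direction. Right, the median log2 fold change of each list, with a dotted line at the median of all genes, from -2.08 for interferon-inducible GTPases to 0.96 for NRF2 and glutathione.

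Interferon-stimulated genes fell almost throughout. Of 47 tested, 45 fell and none rose, against 7.31% of all genes, with a median of -1.66 on the log2 scale. The 2 that were not called, singled out after their values were seen, were Ifi27l2a (-0.22) and Ifitm3 (-0.44). Of 16 interferon-inducible GTPases, which attack the vacuoles of intracellular pathogens, 15 fell, with a median of -2.08, and of 16 interferon signalling genes 10 fell.

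Cxcl10, a chemokine that recruits T cells and a classical interferon target, measured 65.4, 74.0 and 111 RPKM in untreated cells and 3.48, 2.40 and 4.34 RPKM with oxLDL 60. This was the largest decrease among the genes named (log2 fold change -4.58, SE 0.23, limma adjusted p = 6e-10). Ifit1, which binds foreign RNA, went from 35.5, 41.2 and 55.0 RPKM to 2.36, 1.93 and 4.95 RPKM (-3.88, SE 0.29, adjusted p = 3.2e-08). For both genes every treated library lay below every untreated one, as in 28.3% of all genes tested. Genes named as the largest changes had to meet this condition. Isg15, a ubiquitin-like modifier, fell from 38.0, 50.1 and 50.5 RPKM to 8.52, 5.81 and 7.53 RPKM. Irf7, an interferon regulatory factor that is itself among the 45 listed genes that fell, averaged 57.9 ± 6.76 RPKM (SD, n = 3) untreated and 22.3 ± 1.81 RPKM treated. Its change was -1.37 (SE 0.14). Stat2 changed by -1.65 (SE 0.13), Irf1 by -1.71 (SE 0.22) and the receptor subunit Ifnar1 by -0.62 (SE 0.09), all among the 10 signalling genes that fell. Whether any of them drives the decrease was not tested. Ifnb1 (interferon beta) was too low to be tested, listed at 0 in every treated library and reaching 0.0792 RPKM untreated. Near-identical copies among the Ifit, Gbp, Oas and Slfn genes may share reads, so their single values are uncertain.

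The interferon-stimulated response element (ISRE), a site bound by interferon regulatory factors, was looked for in promoters because these genes moved together. RefSeq promoter windows of 300 bases (GRCm38.p6, the mm10 assembly) were found for 10153 of the 12838 genes tested, 79.1%. The pattern searched was GAAA, any 2 bases, then GAAA, on either strand and with overlapping matches allowed; a gene with several windows had more chances of a match. It was in 12.6% of 744 genes called lower, in 2.46% of 487 called higher and in 3.95% of all tested with a window, and in 3.44% of all windows in the table. Among interferon-stimulated genes 18 of 35 held a match. A match describes the letters only. The windows of Cxcl10 at chr5:92348840-92349139 (- strand), Isg15 at chr4:156200769-156201068 (- strand) and Ifit1 at chr19:34640639-34640938 (+ strand) are shown as examples, 5′ to 3′ along the gene, with matches in capitals. Here and below only windows with a match could be shown, so that they hold one was fixed in advance.
Cxcl10: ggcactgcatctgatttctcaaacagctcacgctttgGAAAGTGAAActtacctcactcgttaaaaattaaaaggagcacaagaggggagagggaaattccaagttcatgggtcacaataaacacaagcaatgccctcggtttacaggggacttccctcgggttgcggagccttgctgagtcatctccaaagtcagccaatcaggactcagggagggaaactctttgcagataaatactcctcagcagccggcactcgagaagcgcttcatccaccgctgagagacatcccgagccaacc
Isg15: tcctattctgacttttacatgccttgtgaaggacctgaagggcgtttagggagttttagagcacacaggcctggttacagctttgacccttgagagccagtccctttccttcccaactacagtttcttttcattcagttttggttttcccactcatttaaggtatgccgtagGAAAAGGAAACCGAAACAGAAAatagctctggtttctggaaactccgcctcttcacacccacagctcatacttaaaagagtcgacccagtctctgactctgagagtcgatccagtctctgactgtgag
Ifit1: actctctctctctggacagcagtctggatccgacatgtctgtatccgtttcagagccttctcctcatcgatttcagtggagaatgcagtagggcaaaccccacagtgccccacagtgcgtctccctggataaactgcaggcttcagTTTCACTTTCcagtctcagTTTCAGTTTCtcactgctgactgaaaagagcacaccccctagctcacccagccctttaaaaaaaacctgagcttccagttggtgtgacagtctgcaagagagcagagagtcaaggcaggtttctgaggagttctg
Cxcl10 held 1 match, Ifit1 held 2 on the opposite strand, and Isg15 held 3 that overlap in 1 run.

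Inflammatory cytokines fell as well. Of 19 tested, 14 fell, 1 rose and 4 were not called, with a median of -1.39. Among all genes 7.31% fell and 4.87% rose. Il1b, the inflammasome's main product, stood at 4.24, 5.24 and 10.3 RPKM in untreated libraries and at 0.336, 0.139 and 0.476 RPKM in treated ones (-3.99, SE 0.38, adjusted p = 5e-07). Tnf fell from 109, 117 and 98.0 RPKM to 41.8, 41.5 and 32.3 RPKM (-1.49, SE 0.15). Treated libraries lay below untreated ones without overlap for Il1b and Tnf, as in 28.3% of all genes tested. Saa3, an acute phase protein, fell by 3.59 on the log2 scale with a wide treated range, 0.981 to 7.78 RPKM. Il6 was low throughout, at most 0.380 RPKM untreated and 0.0365 RPKM treated, and its call (-1.43, SE 0.24) was lost with a pseudocount of 1 RPKM. The cytokine that rose was Osm (oncostatin M, 1.23 on the log2 scale), picked out after its value was seen.

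Chemokines and their receptors followed. Of 21 chemokines 14 fell and none rose (66.7%, median -1.34). Of 17 chemoattractant receptors 10 fell and none rose (58.8%, median -1.10). Among all genes 7.31% fell. Ccl5 went from 5.70, 5.97 and 11.2 RPKM to 1.18, 0.941 and 1.77 RPKM, and Ccl22, a ligand of CCR4, changed by -2.87 (SE 0.45). Ccl2, the monocyte attractant, did not pass: it stood at 450, 596 and 165 RPKM untreated and at 341, 374 and 160 RPKM treated (-0.37, SE 0.62, adjusted p = 0.72), with replicate 3 lowest in both groups. Cx3cr1, the fractalkine receptor, fell from 149, 114 and 192 RPKM to 19.9, 17.9 and 34.1 RPKM (-2.68, SE 0.24, adjusted p = 2.6e-07). The formyl peptide receptors Fpr1 (-3.89, SE 0.33) and Fpr2 (-3.62, SE 0.38) and the CCL2 receptor Ccr2 (-1.67, SE 0.22) fell too.

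Sensors and signal relays of the NF-kB pathway fell in part. Of 27 pattern recognition genes 9 fell and none rose (33.3%), and of 24 NF-kB genes and feedback inhibitors 16 fell (66.7%). Among all genes 7.31% fell. Tlr2, which senses bacterial lipoproteins, went from 160, 164 and 162 RPKM to 51.6, 47.0 and 47.5 RPKM (-1.73, SE 0.09, adjusted p = 1.2e-09), while Tlr4, the endotoxin receptor, stood at 17.2, 16.9 and 19.6 RPKM untreated and at 18.5, 19.1 and 22.1 RPKM treated (0.15, SE 0.11, not called). The TLR4 co-receptor Cd14 fell by 1.81 (SE 0.15). Socs3, a cytokine signalling inhibitor, fell from 13.6, 16.0 and 20.1 RPKM to 1.31, 1.16 and 1.09 RPKM, and Nfkbia, the NF-kB inhibitor, by 1.15 (SE 0.09), whereas Tnfaip3 (A20) was not called (-0.32, SE 0.14). Among 17 inflammasome genes 6 fell, with Nlrp3 at -1.30 (SE 0.07), Mefv at -2.24 (SE 0.23) and Casp1 at -0.14 (SE 0.08, not called).

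Enzymes that make lipid mediators and nitric oxide showed mixed changes, with 4 of 16 lower and 2 higher. Ptges, which makes prostaglandin E2, fell from 16.5, 16.0 and 31.4 RPKM to 2.26, 1.80 and 2.75 RPKM, and Acod1, the itaconate-producing enzyme, by 2.00 (SE 0.28). Ptgs2 (COX-2) fell by 1.27 (SE 0.30), while Ptgs1 (COX-1) rose by 0.54 (SE 0.07), or by 0.46, under the fold limit, without treated replicate 3. Mmp14, a membrane-bound matrix metalloproteinase, went from 28.8, 28.7 and 39.4 RPKM to 1.35, 1.62 and 2.10 RPKM (-4.18, SE 0.21, adjusted p = 5.4e-10), next to Cxcl10 in size. Mmp12, the macrophage elastase, was called higher (1.47, SE 0.51, adjusted p = 0.0415), yet its groups overlapped: 131, 153 and 40.6 RPKM untreated against 329, 389 and 136 RPKM treated. Its call was lost without untreated replicate 3 (0.88), treated replicate 1 (adjusted p = 0.126) or treated replicate 2 (1.18). Each treated library was above the untreated one of its own number, and with the replicate number as a block the change was 1.47 (SE 0.09, adjusted p = 1.5e-09). C3 and Cfb of the complement system fell by 2.02 (SE 0.21) and 2.11 (SE 0.31), and C1qa was not called.

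Antigen presentation genes fell in part. Of 15 class I genes 7 fell (median -0.49), led by the peptide transporter Tap1 (-0.98, SE 0.14), while H2-K1 and B2m were not called. Of 14 class II and co-stimulation genes 4 fell and 1 rose (median -0.44). Ciita, the class II transactivator, changed by -1.45 (SE 0.38, lost with a pseudocount of 1 RPKM), and Cd40 by -1.23 (SE 0.12). Icosl, the ICOS ligand, fell from 8.83, 9.14 and 10.0 RPKM to 5.00, 4.96 and 3.94 RPKM, and the class II chain H2-Aa was called only with the replicate block (-0.50, adjusted p = 0.443 without it and 0.00013 with it). Of 39 proteasome genes 4 fell, a share of 10.3% that is near the 7.31% of all genes that fell. They were the interferon-inducible parts Psmb8, Psmb9, Psmb10 and Psme2, at -0.50, -0.70, -0.78 and -0.83. Psmb8 fell short of the fold limit after rescaling (-0.43) and without untreated replicate 3 (-0.44), treated replicate 1 (-0.46) or the Xist-positive libraries (-0.48). The constitutive subunit Psmb5 stood at 151, 150 and 150 RPKM untreated and at 169, 165 and 162 RPKM treated, and was not called. H2-Q genes are near-identical and their values uncertain.

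Cholesterol synthesis genes fell in part. Of 26 genes tested 15 fell and none rose, 57.7% against 7.31% of all genes that fell. The median was -0.69, against -0.06 for all genes. Idi1, an isoprenoid isomerase, went from 17.1, 13.1 and 14.1 RPKM to 3.18, 3.00 and 2.66 RPKM (-2.28, SE 0.15, adjusted p = 1e-08). Cyp51, a sterol demethylase, fell from 9.33, 7.66 and 6.20 RPKM to 3.34, 3.45 and 2.61 RPKM (-1.27, SE 0.16), and Sqle, the squalene epoxidase, by 1.13 (SE 0.18). In all 3 genes every treated library lay below every untreated one, as in 28.3% of all genes tested.

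Cholesterol export rose. Abcg1, which hands cholesterol to HDL, stood at 9.24, 11.1 and 18.0 RPKM untreated and at 84.4, 85.7 and 85.2 RPKM treated (2.79, SE 0.24, adjusted p = 1.5e-07). Abca1, which loads apoA-I, went from 4.96, 5.90 and 11.2 RPKM to 30.7, 32.8 and 32.4 RPKM (2.19, SE 0.32). In both, untreated replicate 3 was the highest of its group and the treated libraries lay within a narrow band. Mylip, an E3 ubiquitin ligase and LXR target, rose by 1.61 (SE 0.15). Of 15 genes in this list 6 rose and 1 fell, and the one that fell was Nr1h3 itself, which encodes LXRα, from 21.3, 23.9 and 26.4 RPKM to 12.2, 12.9 and 12.8 RPKM (-0.91, SE 0.16).

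Oxysterol and fatty acid genes went both ways. Ch25h, which makes 25-hydroxycholesterol, fell from 29.1, 37.9 and 30.6 RPKM to 1.71, 1.89 and 1.91 RPKM (-4.07, SE 0.20, adjusted p = 6e-10), while Hsd3b7 of bile acid synthesis rose by 0.92 (SE 0.08). Among 13 fatty acid genes 3 rose and 3 fell. The desaturase Scd2 rose from 2.58, 2.18 and 2.58 RPKM to 13.3, 12.3 and 11.9 RPKM (2.31, SE 0.18), and Acss2, which makes acetyl-CoA from acetate, rose by 1.58 (SE 0.18). Fasn, the fatty acid synthase, fell by 1.28 (SE 0.14) and the desaturase Fads2 by 1.15 (SE 0.18).

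Lipid storage genes rose in part, with 6 of 16 higher and 2 lower, while of 12 scavenger receptors 2 rose and 4 fell (median 0.00). Plin2, which coats lipid droplets, stood at 349, 370 and 260 RPKM untreated and at 790, 793 and 701 RPKM treated (1.24, SE 0.12, adjusted p = 6e-07). Hilpda, an inhibitor of lipolysis, rose by 1.77 (SE 0.18) and Nceh1, a cholesteryl ester hydrolase, by 0.80 (SE 0.08), while the hormone-sensitive lipase Lipe fell by 0.90 (SE 0.12). The scavenger receptor Cd36 rose from 219, 238 and 165 RPKM to 438, 470 and 363 RPKM (1.04, SE 0.14), but the scavenger receptors Msr1 (-0.88, SE 0.09) and Olr1 (-1.51, SE 0.20) fell. Of 19 PPAR and fatty acid oxidation genes 5 rose and 1 fell, with the receptor Ppard at 1.17 ± 0.319 RPKM (SD, n = 3) untreated and 3.24 ± 0.782 RPKM treated, and Pparg not called (0.34, SE 0.10). Among 18 foam cell markers 6 rose and 1 fell: Trem2 (0.42), Gpnmb (0.42) and Spp1 (-0.34) were not called.

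NRF2 targets gave the broadest rise. Of 34 tested, 23 rose and none fell, against 4.87% of all genes, with a median of 0.96. Hmox1, which degrades haem, stood at 613, 568 and 504 RPKM untreated and at 2931, 2351 and 2160 RPKM treated (2.14, SE 0.15, adjusted p = 1.5e-08). Srxn1, a sulfiredoxin that repairs peroxiredoxins, rose from 95.2, 93.4 and 75.1 RPKM to 477, 445 and 388 RPKM (2.31, SE 0.11), and Nqo1, a quinone reductase, from 11.6, 10.7 and 11.6 RPKM to 44.9, 37.9 and 49.9 RPKM (1.95, SE 0.10). In these genes every treated library lay above every untreated one, as in 14.3% of all genes tested. Nfe2l2, which encodes NRF2, was not called: 54.7, 56.5 and 57.4 RPKM against 51.8, 49.2 and 48.7 RPKM (-0.17, SE 0.11). Gsta3 rose from 0.821, 0.757 and 0.269 RPKM to 6.78, 6.47 and 4.91 RPKM, although glutathione transferases resemble one another in sequence and may share reads.

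The antioxidant response element, the site of NRF2 with small MAF proteins, was searched for as TGACNNNGC on both strands. Among genes with a window, 24.0% of those called higher, 15.7% of those called lower and 16.9% of all tested held a match. The pattern was in 12.4% of all single windows in the table, and in 8 of 28 NRF2-list genes with a window. The windows of Srxn1 at chr2:152105274-152105573 (+ strand) and of the glutathione synthesis subunit Gclm (1.51, SE 0.07, chosen after its values were seen) at chr3:122245307-122245606 (+ strand) are given with matches to this pattern in capitals. The pattern requires TGAC, so stretches that begin with TGAG, such as tgagtcagc in the Srxn1 window, were neither counted nor marked. Whether NRF2 binds any of these stretches was not tested.
Srxn1: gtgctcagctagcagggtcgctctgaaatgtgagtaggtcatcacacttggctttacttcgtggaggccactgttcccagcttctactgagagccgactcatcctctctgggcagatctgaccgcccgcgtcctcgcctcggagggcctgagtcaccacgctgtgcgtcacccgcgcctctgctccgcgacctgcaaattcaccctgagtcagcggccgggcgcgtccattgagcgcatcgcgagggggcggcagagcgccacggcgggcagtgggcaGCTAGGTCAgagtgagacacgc
Gclm: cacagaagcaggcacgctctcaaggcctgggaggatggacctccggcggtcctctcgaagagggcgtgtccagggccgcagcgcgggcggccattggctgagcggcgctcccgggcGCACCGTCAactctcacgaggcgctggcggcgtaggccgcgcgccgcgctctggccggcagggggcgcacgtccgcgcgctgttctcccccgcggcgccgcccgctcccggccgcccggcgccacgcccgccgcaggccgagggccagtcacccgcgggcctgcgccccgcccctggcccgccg
Both matches were on the opposite strand.

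Iron and pentose phosphate genes rose in part. Slc40a1, the iron exporter ferroportin, went from 8.18, 8.23 and 6.91 RPKM to 64.1, 67.8 and 54.1 RPKM (2.98, SE 0.15, adjusted p = 6e-10), and Blvrb, a biliverdin reductase, rose by 0.84 (SE 0.10), while Lcn2, a siderophore binder, fell by 1.31 (SE 0.20). Ferritin heavy chain Fth1 (0.18) and the transferrin receptor Tfrc (-0.04) were not called. Of 11 pentose phosphate and NADPH genes 3 rose (Taldo1, Me1 and Pgd, the last at 0.54, or 0.48 without treated replicate 1, under the fold limit), while G6pdx stood at 72.9, 72.9 and 73.8 RPKM untreated and at 81.8, 79.5 and 77.8 RPKM treated and was not called.

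The integrated stress response, in which phosphorylated eIF2α raises the factor ATF4, also rose. Of 30 genes 15 were higher and none lower (median 0.51), against 4.87% of all genes that rose. Gdf15 averaged 2.59 ± 1.29 RPKM (SD, n = 3) untreated, with replicate 3 at 1.13 RPKM, and measured 38.9, 41.1 and 18.4 RPKM treated (3.67, SE 0.44, adjusted p = 7.2e-06), with replicate 3 lowest in both groups. Slc7a11, the cystine importer that ATF4 and NRF2 both drive, went from 4.07, 4.20 and 3.97 RPKM to 16.3, 16.8 and 11.8 RPKM (1.83, SE 0.18). Chac1, which breaks down glutathione, rose by 1.93 (SE 0.31), the pseudokinase Trib3 by 1.90 (SE 0.30), Atf4 by 0.85 (SE 0.08) and Ddit3 (CHOP) by 0.98 (SE 0.23). The ATF4/CHOP element TGATGNAAN was searched for on either strand. Among genes with a window, 5.95% of those called higher, 4.44% of those called lower and 2.82% of all tested held a match. The element was in 3.95% of all single windows in the table, and in 7 of 27 stress-list genes with a window. The window of Slc7a11 at chr3:50443564-50443863 (- strand) held 2 matches, 1 on each strand, and that of Chac1 at chr2:119350992-119351291 (+ strand) held 1.
Slc7a11: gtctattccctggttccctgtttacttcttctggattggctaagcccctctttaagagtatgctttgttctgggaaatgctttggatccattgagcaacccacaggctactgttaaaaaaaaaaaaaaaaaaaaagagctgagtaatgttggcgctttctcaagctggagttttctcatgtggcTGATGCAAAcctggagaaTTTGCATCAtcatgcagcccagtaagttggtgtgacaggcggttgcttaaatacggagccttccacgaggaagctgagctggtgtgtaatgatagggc
Chac1: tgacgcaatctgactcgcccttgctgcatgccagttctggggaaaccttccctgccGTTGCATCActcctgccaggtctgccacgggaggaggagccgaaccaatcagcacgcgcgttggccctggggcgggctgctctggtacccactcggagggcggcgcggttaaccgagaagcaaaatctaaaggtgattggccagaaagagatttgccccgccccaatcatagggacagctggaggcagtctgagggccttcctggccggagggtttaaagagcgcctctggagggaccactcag
Capitals mark the matches.

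Other stress programmes were not called as lists. None of 24 endoplasmic reticulum chaperones was called by limma (4 had an unadjusted p under 0.05), with Hspa5 (BiP) at 212, 205 and 228 RPKM untreated and at 205, 212 and 230 RPKM treated. Of 22 cytosolic heat shock genes 1 was called (without the Xist-positive libraries, 2 higher and 1 lower), namely Hspa1a (1.52, SE 0.54, adjusted p = 0.0484), whose replicates 1 and 2 were higher with oxLDL 60 (3.54 and 3.15 against 0.383 and 0.521 RPKM) and whose replicate 3 was lower (0.768 against 1.36 RPKM). Its call was lost without untreated replicate 1 (1.19), untreated replicate 2 (1.37), treated replicate 1 (1.14) or treated replicate 2 (1.23), and in 4 other alternatives. Hspa1a and Hspa1b are near-identical and may share reads.

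Lysosome genes were called in 15.0% of cases in either direction, against 12.2% of all genes. Of 40 genes 5 were higher and 1 lower, while 4.87% of all genes rose and 7.31% fell. A positive log2 fold change was found in 32 and a limma unadjusted p under 0.05 in 21. The median was 0.18, against -0.06 for all genes. Lipa, the lysosomal acid lipase that frees cholesterol from lipoproteins, stood at 407, 403 and 364 RPKM untreated and at 633, 656 and 569 RPKM treated (0.66, SE 0.08), and Gla (0.76, SE 0.10) and the V-ATPase subunit Atp6v1a (0.64, SE 0.08) rose too. Tfeb, a factor that drives lysosome genes, was not called (0.05, SE 0.11). Of 23 autophagy genes 2 rose and none fell, 8.70% against 4.87% of all genes that rose. They were the cargo receptor Sqstm1, which is also an NRF2 target (0.97, SE 0.14), and Gabarapl1 (0.61, SE 0.11).

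Housekeeping programmes held few calls. None of 39 oxidative phosphorylation genes and none of 80 cytosolic ribosomal protein genes was called by limma (0 and 2 had an unadjusted p under 0.05), with medians of -0.05 and -0.08. Of 41 cell cycle genes 38 had a negative log2 fold change and 21 an unadjusted p under 0.05 (median -0.19), but only Cdc6 was called, lower by 0.55 (SE 0.11) and short of the fold limit without untreated replicate 2 (-0.48), and Mki67 stood at 68.1, 63.6 and 53.2 RPKM untreated and at 57.4, 66.4 and 48.4 RPKM treated. Cyclin D1 (Ccnd1) fell from 186, 183 and 149 RPKM to 98.7, 94.0 and 86.1 RPKM (-0.89, SE 0.20). Of the 70 histone genes tested 2 fell, 2.86% against 7.31% of all genes. The oxidative phosphorylation median was 0.01 after median ratio rescaling and has no direction here.

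Macrophage identity and regulator genes shifted selectively. Spi1 (PU.1) fell from 178, 182 and 207 RPKM to 120, 114 and 120 RPKM (-0.68, SE 0.08), Maf fell from 8.48, 8.62 and 14.0 RPKM to 3.14, 2.84 and 5.95 RPKM, and Id2 (1.23, SE 0.17), Bhlhe40 (1.10, SE 0.17) and Bhlhe41 (1.08, SE 0.11) rose, while Csf1r (-0.37) was not called. In the TREM family Trem1 (-0.59, SE 0.17) and Trem3 (-0.81, SE 0.18) fell, the first not called without untreated replicate 2 (-0.42) or treated replicate 1 (-0.52), and Tyrobp (DAP12) was not called. Fc receptors Fcgr1 (-0.90, SE 0.17) and Fcgr2b (-1.54, SE 0.14) fell. The serpinb protease inhibitors rose in 6 of 9 and fell in 2: Serpinb9b (2.39, SE 0.28) and Serpinb9 (1.41, SE 0.08) were higher and Serpinb2 lower (-2.30, SE 0.43). Adora2b, an adenosine receptor, fell from 7.57, 8.81 and 7.61 RPKM to 1.83, 1.71 and 1.54 RPKM, and Bcl2a1d by 1.54 (SE 0.20), a gene with near-identical copies. Of 216 solute carriers 17 rose and 17 fell, 15.7% in all against 12.2% of all genes, and 22 rose and 13 fell after quantile normalization.

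**Figure D3:**
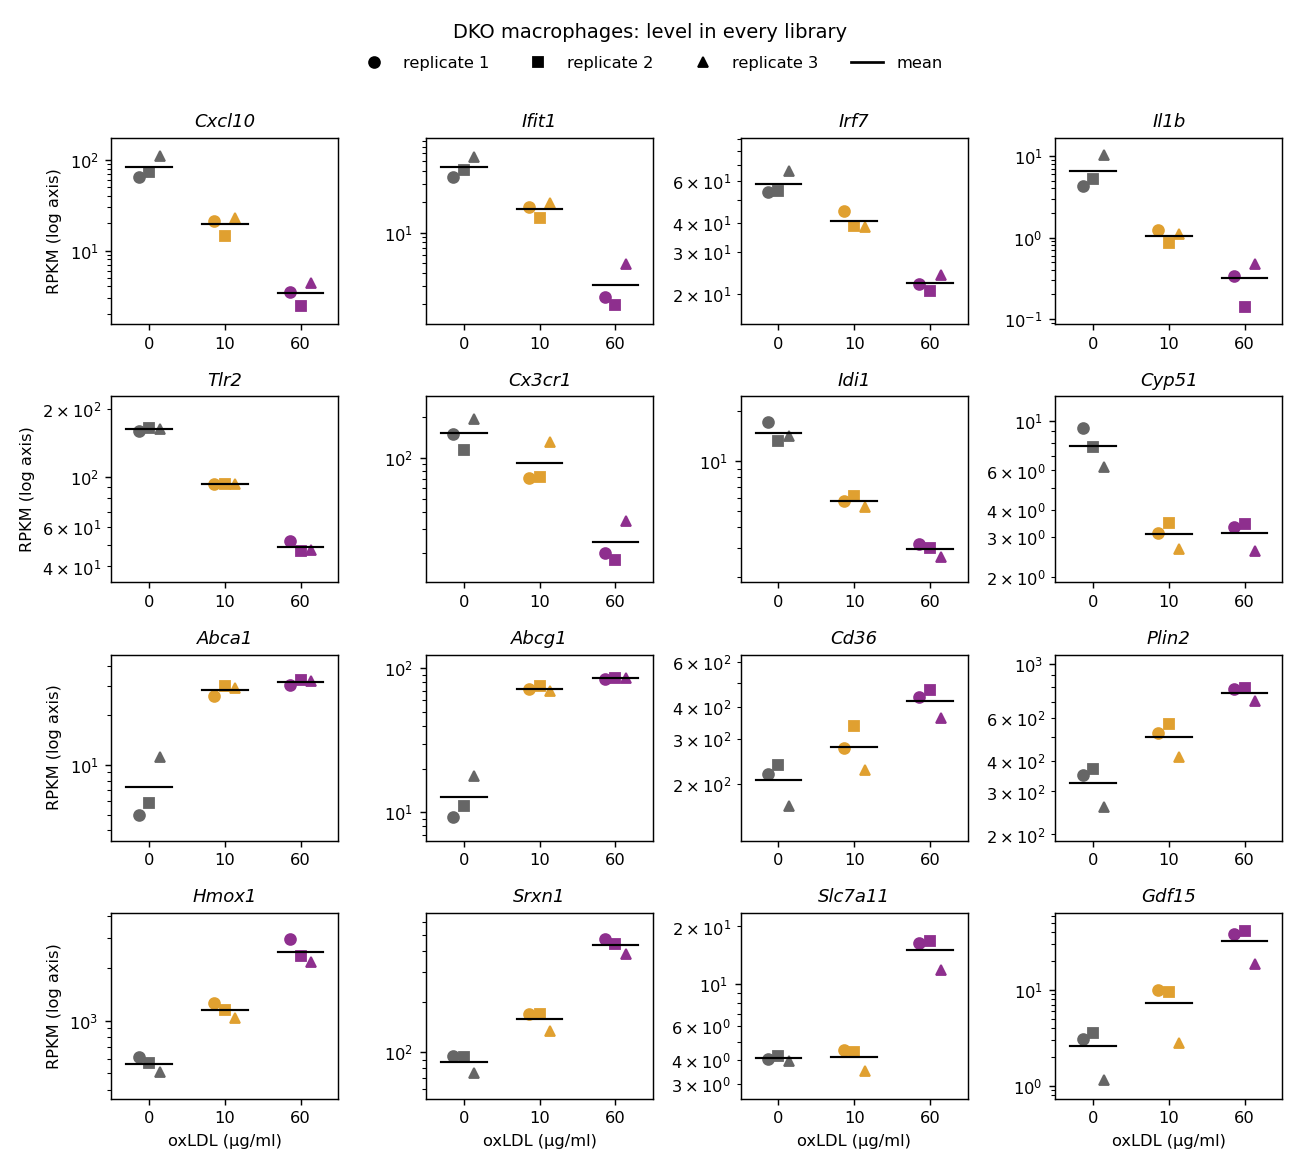
Levels of 16 genes in the 9 DKO libraries, in RPKM on log axes, with oxLDL at 0, 10 and 60 µg/ml on the x axis, a symbol for each replicate and a bar at the mean of 3. Abca1, Abcg1 and Cyp51 sit near their oxLDL 60 level at oxLDL 10, whereas Slc7a11 is at its untreated level there.

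How the high amount differed from the low one was tested in the same fit, with oxLDL 60 against oxLDL 10. It called 726 genes, 5.66% of those tested: 246 higher and 480 lower with RPKM as deposited, and 361 higher and 360 lower after median ratio rescaling. This comparison shares the oxLDL 60 libraries with the one above, so the values stand side by side only. Abca1 (0.16), Abcg1 (0.24), Scd2 (0.04), Cyp51 (0.01) and Sqle (-0.18) were not called between the amounts. Of 34 NRF2-list genes 21 were higher at 60 than at 10, and of 30 stress genes 9 were, with Slc7a11 averaging 4.08 ± 0.117 RPKM untreated (SD, n = 3), 4.14 RPKM at oxLDL 10 and 15.0 ± 2.74 RPKM at oxLDL 60. Interferon-stimulated genes were lower at 60 than at 10 in 43 of 47 cases, with Cxcl10 at 19.5 RPKM on average at oxLDL 10 (-2.49, SE 0.23 between the amounts).

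**Figure D4:**
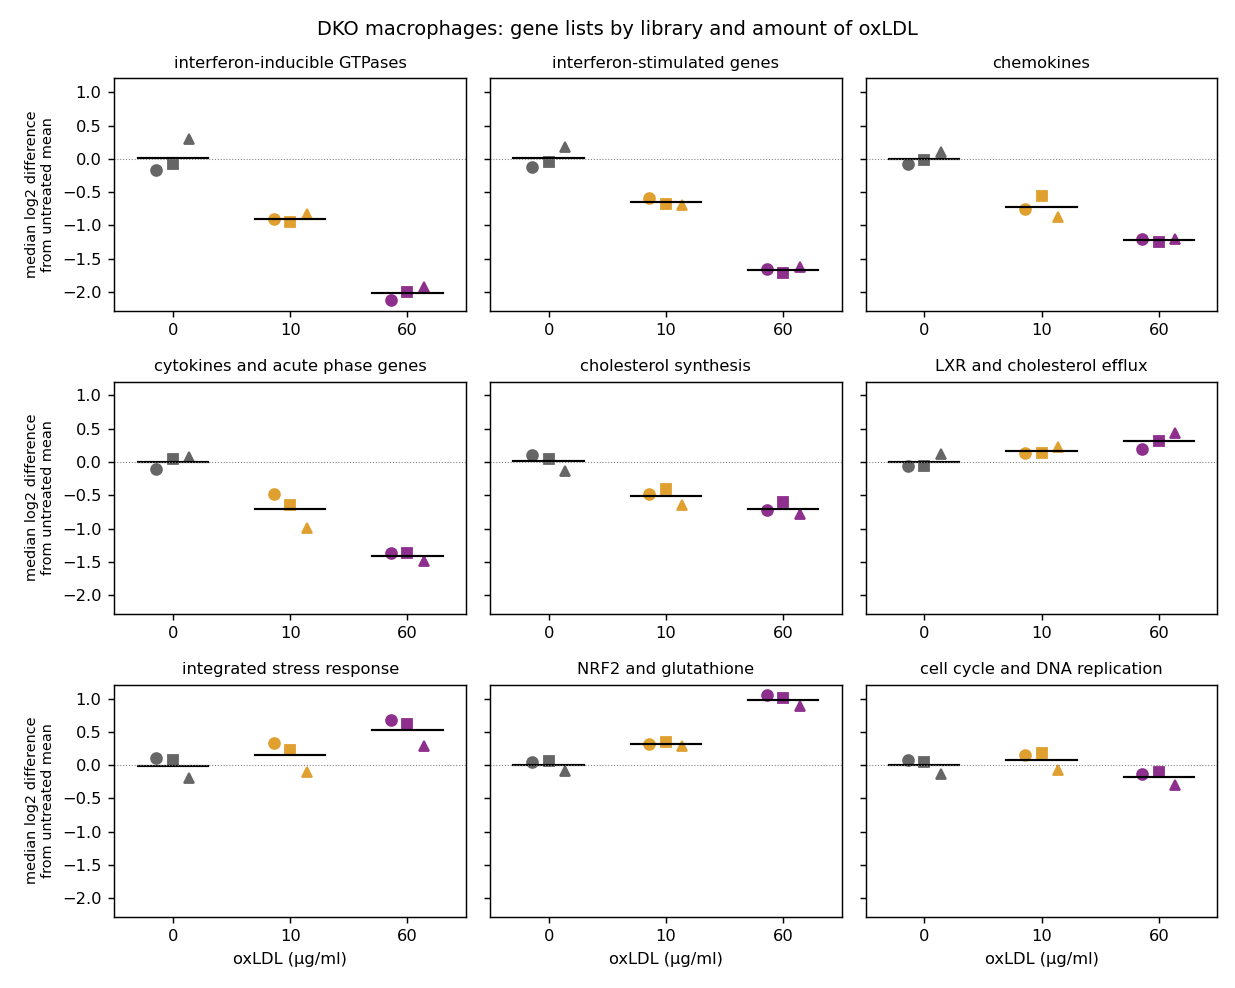
Each point is 1 DKO library (circle, square and triangle for replicates 1, 2 and 3), with the median over a list's tested genes of its log2(RPKM + 0.1) minus the untreated DKO mean on the y axis, oxLDL in µg/ml on the x axis and bars at the mean of 3. Interferon-inducible GTPases go from between -0.17 and 0.30 untreated to between -0.95 and -0.83 at oxLDL 10 and between -2.12 and -1.92 at oxLDL 60, and the NRF2 list from 0.28 to 0.34 at oxLDL 10 to 0.88 to 1.05 at oxLDL 60.

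Whether the response depended on Treml4 was tested as the interaction of genotype and oxLDL 60, the change in DKO minus that in Apoe-/-. It called 2 of 12838 genes, 0.0156%, with 1256 at an unadjusted p under 0.05, and 5 with the replicate number as a block. The 2 genes were Treml4, which is deleted in DKO, and Dnajb3, at levels near 3 reads over 1 kb. In Apoe-/- cells, a comparison in the same fit with other libraries, Cxcl10 changed by -5.39, Mmp14 by -4.25, Hmox1 by 2.26, Gdf15 by 3.78 and Abca1 by 1.29. The interaction median over all genes was -0.11 with RPKM as deposited and 0.005 after median ratio rescaling, a shift above 0.1 that comes with the scaling. Slc40a1 rose by 2.98 in DKO and by 2.22 in Apoe-/- cells (difference 0.76, SE 0.21, adjusted p = 0.507, and 0.0487 with the block), and Scd2 by 2.31 and 1.08 (difference 1.23, adjusted p = 0.414, and 0.0231 with the block).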

How the data were processed

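Total RNA of mouse macrophages was sequenced in 18 libraries. The authors aligned reads with STAR to mm10 (per the submitters' processing notes) and deposited RPKM for 18668 symbols, 24 of them turned into dates by spreadsheet software; the annotation is not given in the sources used here. RPKM share a library's total, so abundant RNAs lower other values. From these, log2(RPKM + 0.1) was fitted with limma 3.58.1 in R 4.3.3 (1 mean per group, 6 groups, eBayes with a trend), with Benjamini-Hochberg adjustment per comparison. Fold changes on this scale understate low genes. The procedure was tested on simulated data.

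Members, lists and tests were chosen with earlier results of these data known. Genes named were the 10 largest changes in each direction among called genes with groups not overlapping and a mean of at least 1 RPKM, the first 3 and up to 4 most changed members of each list, the 5 largest changes in each direction between oxLDL amounts, interaction calls, the 10 most abundant genes, and Treml4, Apoe and sex-linked genes. The histone pattern was corrected after the values were seen because it also matched MHC symbols. Whether replicate numbers pair libraries was checked by the correlation of deviations from group means. The 9 same-number pairs in DKO gave 0.19 to 0.61 (median 0.32). The 18 pairs of other numbers gave -0.48 to 0.29 (median -0.35), so the ranges overlap. Deviations within a group sum to 0, so positive same-number values push the others down. On this basis numbers were treated as paired within genotype only in the replicate block, an alternative fit, with no label to show the pairing. The main calls and their p-values came from the fit without the block. Replicate 3 carried Xist in untreated and in treated DKO cells. Whether sex accounts for the same-number correlations was not tested. Depth was recovered from the steps of low RPKM values with GENCODE M21 lengths. Alternatives covered pseudocount, filter, scaling, block, fold limit, trend and left-out libraries. Some genes the rule names are not reported here.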

Additional observations from a re-analysis of the deposited data

Results flagged for a closer look

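The oxLDL 60 response differed between genotypes for 2 genes by the test of the difference itself. Treml4, the gene deleted in DKO, had a log2 difference of -1.70 (DKO minus Apoe-/-, SE 0.22, limma adjusted p = 0.0118): it was at 1.86, 3.48 and 2.60 RPKM in untreated and 8.36, 8.39 and 8.06 RPKM in oxLDL 60 Apoe-/- libraries, and at or near 0 in DKO. It was called in 16 of 22 alternatives. Being deleted in DKO, Treml4 could not respond there, so its call was fixed by the design once it rose in Apoe-/- cells. Dnajb3 had a log2 difference of 1.70 (SE 0.26, adjusted p = 0.0312) at very low levels, 0.0237 to 0.0799 RPKM untreated and 0.123 to 0.138 RPKM treated in DKO, against 0.0884 to 0.135 RPKM untreated and 0 in all 3 treated Apoe-/- libraries. These levels lie near what 3 reads over 1 kb give, and the size of the difference follows the pseudocount: 0.26 at 1 RPKM (adjusted p = 0.166) and 4.90 at 0.01 RPKM (adjusted p = 0.0963). Dnajb3 was called in 7 of 22 alternatives. The call was lost with only these 4 groups fitted (adjusted p = 0.281), without the Xist-positive libraries (adjusted p = 0.547) and on leaving out any of 10 of the 12 single libraries, and Dnajb3 did not pass the filter at 1 RPKM.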

How the results depend on the processing

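The 1564 genes called for oxLDL 60 against untreated DKO cells became 3319 with no limit on the fold change and 550 at a fold change of at least 2, and stayed within 1.5 times in the other alternatives, with 1399 to 1595 when a library was left out. With the replicate block, as paired samples, 1732 were called. The 726 genes called between the oxLDL amounts became 2000 with no limit on the fold change and 188 at 2-fold, with 899 under the block and 601 to 784 without single libraries. The 2 interaction calls became 1 with a pseudocount of 1 RPKM, 0 with a pseudocount of 0.01 RPKM, 0 with the filter at 1 RPKM, 0 when the other groups were left out of the fit, and 5 with the replicate block, and 0 to 2 without single libraries; the cause was not tested. Of 176 called genes named by the rule, 146 kept the call in all 16 alternatives and none reversed. Left-out DKO untreated replicate 3 cost the most calls, 14, and a pseudocount of 1 RPKM cost 11. Depth limits genes under about 0.07548 RPKM, which 3 reads over 1 kb give in the shallowest of the 6 libraries, and 3 replicates limit the precision of the rest.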
